A study of Homo sapiens with 10 samples.

Results

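The 10 genes followed here belong to the actin-binding and contractile apparatus and were measured in a human cell line with and without a knockout of the RNA-binding protein RBM4: CSRP1, MYOM1, ACTA2, TAGLN, CNN2, TPM1, TPM2, MYL9, CALD1 and VCL. They are 10 of 58051 gene rows in the deposited count tables. CSRP1 and MYOM1 were picked because their counts were far lower in knockout libraries of these same data, so their values are given as a description, and no test of them is read as a result. The other 8 were added around them as muscle-type cytoskeletal genes, with the tropomyosins included as muscle genes known to be regulated by splicing. All 10 symbols were found in the paired-end and the single-end table, and 9 of the 10 passed the filter on low counts in the paired-end table. MYL9 did not pass and was not tested.

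The cells were HAP1, a near-haploid line derived from the KBM-7 leukaemia line, and every group was grown in the same medium. The paired-end libraries were 3 of wild type, 3 of RBM4 KO clone 1 and 2 of RBM4 KO clone 2, and a single-end pair added 1 wild type and 1 RBM4 KO library. Each knockout group is 1 clone, so an effect of losing RBM4 cannot be told apart within a clone from a feature of that clone. The labels give neither the method of the knockout nor which clone the single-end knockout library came from. The labels do not state whether replicates are separate cultures, and the p-values below therefore reflect only how far these libraries differ, which may be technical.

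In muscle, myosin thick filaments pull on actin thin filaments, and tropomyosin lying along actin controls where myosin can bind. Non-muscle cells build related structures, the stress fibres, from other actin and tropomyosin isoforms, with calponin, transgelin and caldesmon bound along the filaments and vinculin linking their ends to adhesions. Many of the genes are switched on by serum response factor (SRF) through a DNA motif called the CArG box. RBM4 is known to act against the splicing repressor PTB (PTBP1) in choosing muscle exons of the alpha-tropomyosin gene TPM1. Counts summed over a gene do not show which exons were used.

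The promoters of CSRP1, MYOM1 and CNN2 are printed because CSRP1 and MYOM1 were chosen for their low counts and because the last 2 of the 3 hold the CArG box. Sequences are from RefSeq (GRCh38.p14), read 5′ to 3′ on the gene's strand, with the CArG box in capitals. Windows from 250 bases before to 50 bases after a gene start were given for 8 of the 10 genes, 15 windows in all, and both strands were searched for the CArG box by its name's consensus. No window was given for TAGLN or MYL9, so these genes were not searched. It was found in 1 window of MYOM1, at bases -32 to -23 from the start, and in 1 window of CNN2, at bases -89 to -80. Of all 35116 windows of that length, 454 (1.29%) hold it. The CSRP1 stretch comes from the most upstream of its starts and has no match. A match is a description of the letters and not a binding site.
CSRP1, chr1:201507124-201507183, minus strand: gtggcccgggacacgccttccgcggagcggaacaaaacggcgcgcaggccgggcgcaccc
MYOM1, chr18:3219969-3220028, minus strand: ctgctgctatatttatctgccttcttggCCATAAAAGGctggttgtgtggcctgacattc
CNN2, chr19:1026489-1026568, plus strand: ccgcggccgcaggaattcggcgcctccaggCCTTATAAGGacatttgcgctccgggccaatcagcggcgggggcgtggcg

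Library totals ran from 33192095 to 55617525 counts in the paired-end table and were 44140706 (wild type) and 41265510 (knockout) in the single-end table. Levels below are CPM, counts scaled to a common library total, scaled in the paired-end table by TMM-adjusted library sizes. RBM4, the targeted gene, was at 78.6 to 79.8 CPM in wild type, 22.3 to 24.5 in clone 1 and 25.3 to 25.8 in clone 2, so its RNA was lower in every knockout library without reaching 0. The sample numbers in the column names fall into a run of 1 to 5, which holds all wild type libraries and replicate 1 of each clone, and a run of 11 to 13, which holds knockout libraries only. Of markers for the cell types that HAP1 could resemble, the muscle regulators MYOD1, MYOG and MYOCD were at 0 counts in all 8 paired-end libraries, as were the blood markers CD3E, MPO and GATA1. In the single-end pair these were also at 0 except GATA1, which had 8 and 4 counts. TAL1 made up 82.6% of the summed level of the haematopoietic markers, which was 57.2 to 58.4 CPM in wild type, 54.6 to 57.1 in clone 1 and 50.8 to 51.5 in clone 2. The summed level of 16 skeletal muscle markers was 1.78 to 2.82 CPM over the 8 libraries, with 10 of them at 0. VIM made up 89.3% of the summed level of the fibroblast markers, which was 491 to 528 CPM in wild type, 403 to 465 in clone 1 and 502 to 503 in clone 2, with COL1A2, DCN and LUM at 0. That sum hides unlike genes among the 5 fibroblast markers that passed the filter. Against wild type, the log2 fold changes in clone 1 and clone 2 were 0.77 and 5.38 for PDGFRA, and 0.56 and 0.97 for COL1A1. They were 1.69 and -1.09 for THY1, -0.44 and -0.16 for FN1, and -0.23 and -0.16 for VIM.

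Before any comparison, the genes were ordered by their wild type level per kilobase of exon. The length was the union of the exons of all annotated transcripts, which can exceed that of the transcripts present. It was 12876 bp for TPM1, 10318 bp for CSRP1 and 3645 bp for CNN2. The order depends on this length: in plain CPM, TPM1 (mean 311) and VCL (258) stood above CNN2 (208), and CSRP1 (8.91) stood near TPM2 (8.74). CNN2 stood highest at 57.1 ± 3.56 CPM per kilobase (SD, n = 3), followed by VCL at 25.8 ± 0.308, TPM1 at 24.1 ± 1.74 and CALD1 at 12.5 ± 1.74. TPM2 at 2.69 ± 0.090 and MYOM1 at 2.59 ± 0.139 were close to each other. CSRP1 at 0.863 ± 0.049, ACTA2 at 0.791 ± 0.086 and TAGLN at 0.573 ± 0.0094 formed the low end, with MYL9 at 0. The libraries of TPM2 and MYOM1 overlapped, as did those of CSRP1 and ACTA2, and no other neighbours in this order overlapped. The stress-fibre and adhesion genes found in most cell types were thus the abundant ones in HAP1, and the smooth muscle genes ACTA2 and TAGLN were low.

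**Figure D1:**
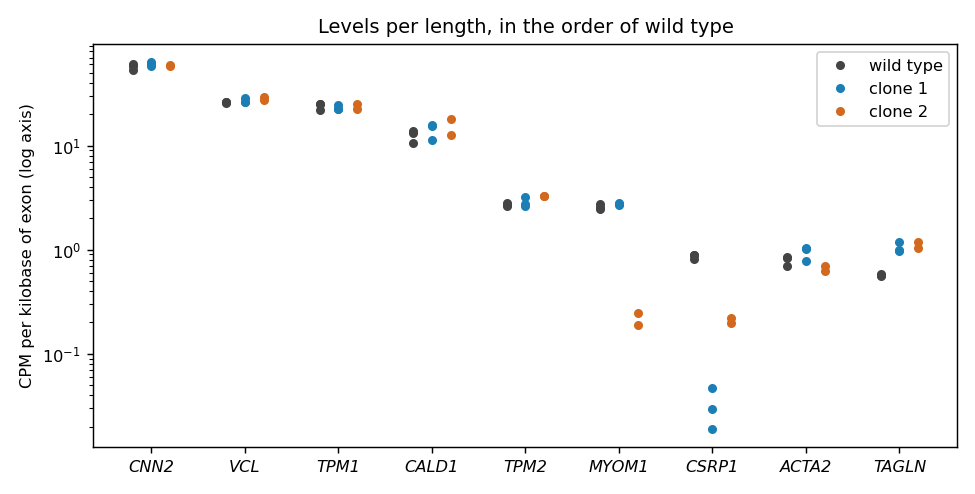
Level of 9 genes in CPM per kilobase of exon (log axis), ordered by the wild type mean, with 1 point per paired-end library coloured by group. CNN2, VCL, TPM1 and CALD1 lie above 10, CSRP1, ACTA2 and TAGLN lie near or below 1 in wild type, and the knockout points leave the wild type points widely for CSRP1 and MYOM1. MYL9, at 0 in wild type, is not drawn.

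CSRP1 encodes a LIM-domain protein that binds and bundles actin filaments and is abundant in smooth muscle (ENSG00000159176, chromosome 1, 201483530 to 201509456, minus strand; coordinates here and below are of GENCODE 29 on GRCh38). Its level was 8.33, 9.21 and 9.18 CPM in wild type replicates 1 to 3, 0.302, 0.487 and 0.197 CPM in clone 1 replicates 1 to 3, with 2.05 and 2.27 CPM in clone 2 replicates 1 and 2. The 3 groups did not overlap: clone 1 was lowest, clone 2 lay between, and wild type was highest. Behind the clone 1 values are 10, 27 and 8 counts, against 351, 323 and 379 in wild type. The log2 fold change against wild type was -4.68 (SE 0.20) in clone 1 and -2.04 (SE 0.18) in clone 2, a level 25.6-fold and 4.11-fold lower. In the single-end pair CSRP1 was at 10.3 CPM in wild type and 2.57 CPM in the knockout, 4.01-fold lower, with an exact 95% interval of 3.24 to 5.01 that covers counting error only. These counts, intervals and folds describe a gene that was chosen for them.

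MYOM1 encodes myomesin, which links myosin thick filaments at the M-band in the middle of the sarcomere (ENSG00000101605, chromosome 18, 3066807 to 3220108, minus strand). Its level was 17.9, 16.1 and 17.0 CPM in wild type, 17.5, 18.4 and 18.2 CPM in clone 1, with 1.24 and 1.64 CPM in clone 2. Clone 1 lay within and just above the wild type range, while both clone 2 libraries were far below every other library. The log2 fold change against wild type was 0.08 (SE 0.08) in clone 1 and -3.55 (SE 0.13) in clone 2, where the level was 11.7-fold lower. In the single-end pair MYOM1 was at 19.6 CPM in wild type and 1.65 CPM in the knockout, 11.9-fold lower (exact 95% interval 9.31 to 15.5, counting error only). The mean of the clones, -1.73, is an average of these unlike values, and with the 5 knockout libraries taken as 1 group the log2 fold change was -0.58. The direct difference, clone 2 minus clone 1, was 2.64 (SE 0.25) on the log2 scale for CSRP1 and -3.64 (SE 0.13) for MYOM1, so CSRP1 was lower in clone 1 and MYOM1 in clone 2.

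**Figure D2:**
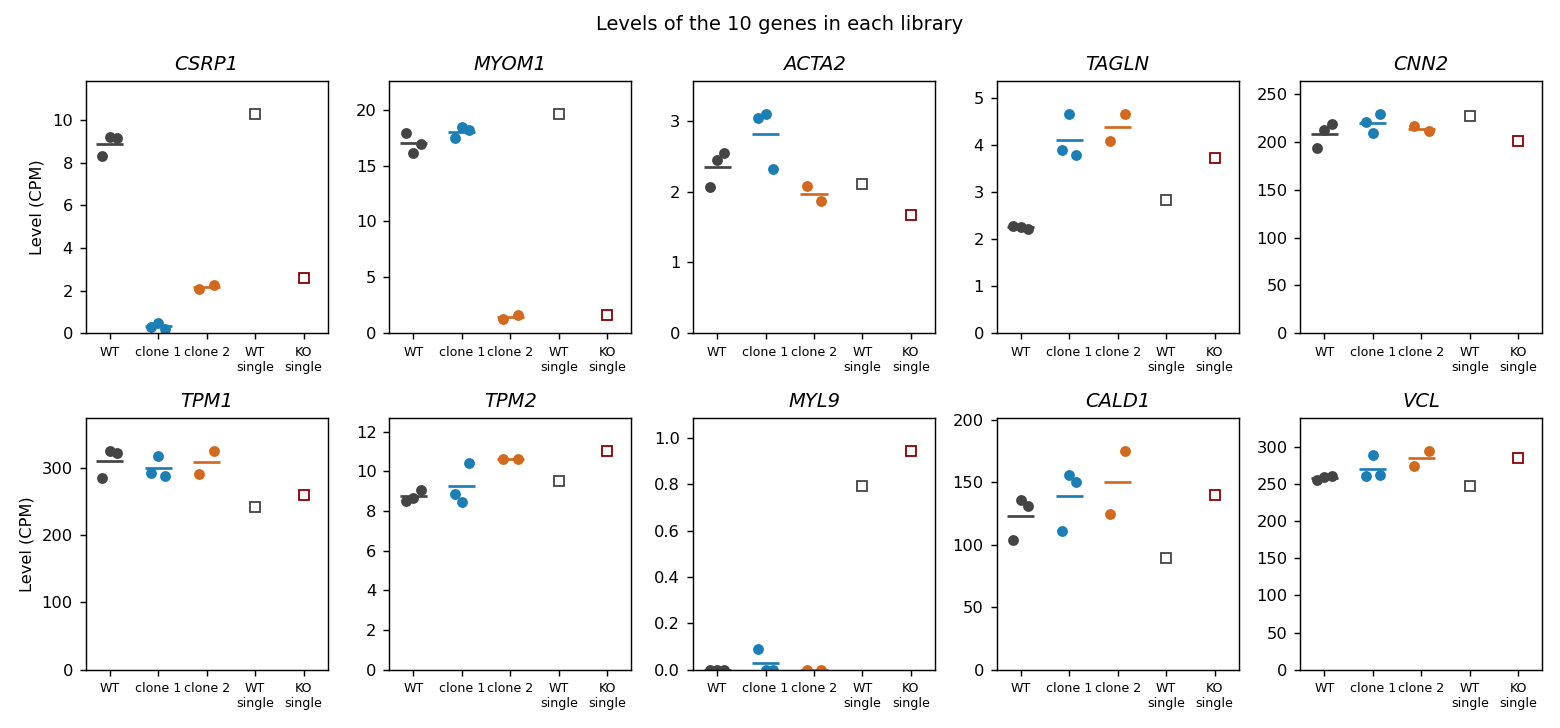
Level in CPM of each of the 10 genes, 1 panel per gene with its own axis from 0. Filled points are paired-end libraries with a line at the group mean, and open squares are the single-end pair, which were scaled by their plain totals and are not compared with the filled points. CSRP1 separates all 3 paired-end groups, MYOM1 is low in clone 2 and the single-end knockout, TAGLN is higher in all 5 paired-end knockout libraries, and MYL9 has counts almost only in the single-end pair.

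Of the 8 genes that were not picked for their values, 7 could be tested, and TAGLN was the gene that passed the test against wild type. Each clone was compared with wild type, and so was the mean of the clones with each clone weighted equally, by edgeR's quasi-likelihood test on all 20747 features that passed the filter. A feature was called at a Benjamini-Hochberg adjusted p below 0.05. Of the 7 tested genes, 1 was called in the mean of the clones, where 18.0% of all features were called (9.87% higher, 8.09% lower). In clone 1 it was again 1, where 16.0% of all features were called (9.37% higher, 6.64% lower), and in clone 2 also 1, where 10.8% were (6.18% higher, 4.59% lower). In each comparison that gene was TAGLN, and 7.51% of all features were called the same way in both clones. The median log2 fold change of the 7 was 0.10 in the mean of the clones, against 0.0020 for all features. A count of 1 in 7 is close to these background shares and says nothing particular about the genes as a group. All comparisons with wild type share the same 3 wild type libraries.

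TAGLN encodes transgelin, or SM22, a calponin-family protein that binds actin filaments and is an early smooth muscle marker (ENSG00000149591, chromosome 11, 117199321 to 117204782, plus strand). Its level was 2.28, 2.25 and 2.21 CPM in wild type, 3.90, 4.65 and 3.77 CPM in clone 1, with 4.08 and 4.65 CPM in clone 2. All 5 knockout libraries lay above all 3 wild type libraries, and the clones overlapped each other. In the mean of the clones the log2 fold change was 0.92 (SE 0.13), a 1.89-fold rise with an edgeR adjusted p of 0.000230. It was 0.88 in clone 1 (edgeR adjusted p = 0.000807) and 0.96 in clone 2 (edgeR adjusted p = 0.000826), and the difference between the clones was 0.08 (SE 0.14, edgeR adjusted p = 0.932). In the single-end pair TAGLN was at 2.83 CPM in wild type and 3.71 CPM in the knockout, a ratio of 1.31 (exact 95% interval 1.03 to 1.67, counting error only). Complete separation of the 5 knockout from the 3 wild type libraries occurred in 25.3% of all features, 13.5% with the knockouts above and 11.8% with them below.

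The rise of TAGLN was also seen within the run of sample numbers that holds all wild type libraries. With only those 5 libraries the log2 fold change was 0.82, and with the run as a term in the fit it was 0.83. Among those 5 libraries each clone has 1, so no spread between libraries of a clone enters and no p-value is given. Of the exon bases of TAGLN, 446 (11.4%) are also exon of PCSK7 on the opposite strand, and it is not known whether the counting used strand, so reads of that stretch could be of either gene. PCSK7, looked up after its neighbour's values were seen, was at 71.8 to 80.4 CPM in wild type, 77.3 to 86.3 in clone 1 and 78.7 to 86.8 in clone 2, with a log2 fold change of 0.13 in the mean of the clones (edgeR adjusted p = 0.138). The summed level of 10 smooth muscle markers, none of them a member, was 95.2 to 107 CPM in wild type, 113 to 127 in clone 1 and 110 to 112 in clone 2. ACTG2 gave 36.5% of that sum, and MYOCD, the smooth muscle master regulator, was at 0 throughout. The sum hides unlike genes among the 5 smooth muscle markers that passed the filter. In clone 1 and clone 2 the log2 fold changes were 0.20 and -0.36 for ACTG2, and 0.18 and 0.05 for SMTN. They were 0.39 and 0.63 for SYNM, 0.32 and 1.14 for SYNPO2, and 0.72 and 0.64 for LMOD1. The sum of 9 epithelial markers, 71.6% of it KRT18, also moved with the groups, at 50.2 to 55.5 CPM in wild type, 69.0 to 75.9 in clone 1 and 77.7 to 84.5 in clone 2. The part of these markers in the TAGLN result was not tested, and in bulk RNA fewer cells of a type and less RNA per cell cannot be told apart.

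**Figure D3:**
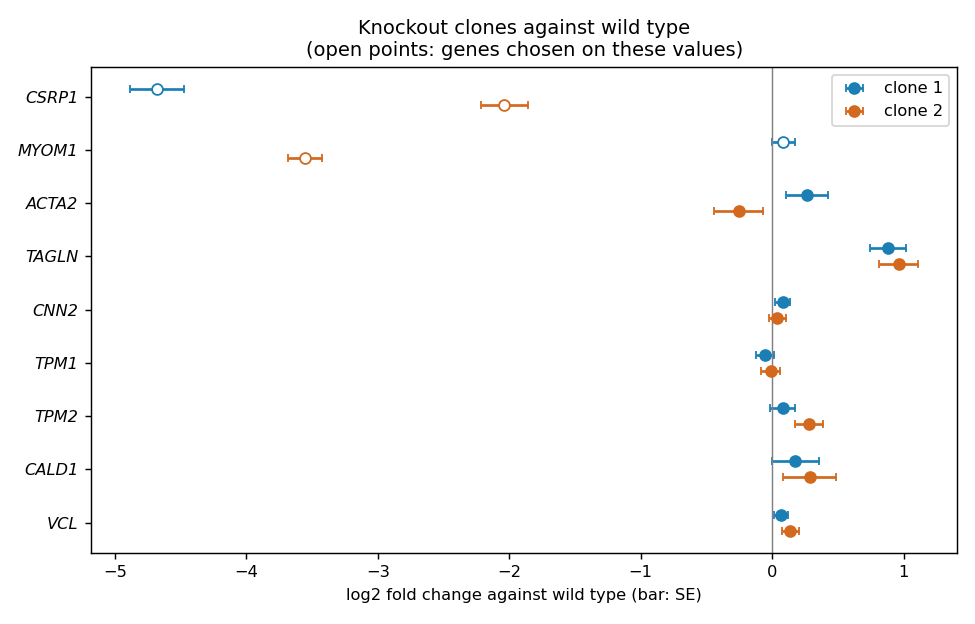
Log2 fold change of each tested gene against wild type, with clone 1 and clone 2 as separate points and SE bars from the edgeR fit; open points mark CSRP1 and MYOM1, which were chosen on these values. TAGLN lies near 0.9 in both clones, and the other filled points lie between -0.25 and 0.28.

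ACTA2, the smooth muscle alpha-actin (ENSG00000107796, chromosome 10, 88935074 to 88991339, minus strand), was at 2.06, 2.45 and 2.55 CPM in wild type, 3.05, 3.10 and 2.32 CPM in clone 1, with 2.08 and 1.87 CPM in clone 2. The knockout libraries lay on both sides of wild type: 2 of clone 1 above its range, and 1 of clone 2 below it. Against wild type the log2 fold change was 0.27 in clone 1 (edgeR adjusted p = 0.288), -0.25 in clone 2 (edgeR adjusted p = 0.454) and 0.01 in the mean of the clones (edgeR adjusted p = 0.986). The difference between the clones, -0.52 (SE 0.18), had an unadjusted p of 0.0138 and an edgeR adjusted p of 0.296. Opposite-strand exons of ACTA2-AS1 and FAS cover 17.3% and 12.8% of its exon bases. The single-end pair gave 2.11 CPM in wild type and 1.67 CPM in the knockout.

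CNN2, calponin 2, a calponin of both muscle and non-muscle cells that stabilises actin filaments (ENSG00000064666, chromosome 19, 1026581 to 1039068, plus strand), was at 194, 212 and 219 CPM in wild type, 221, 210 and 229 CPM in clone 1, with 217 and 211 CPM in clone 2. The groups overlapped. The log2 fold change in the mean of the clones was 0.06 (SE 0.05, edgeR adjusted p = 0.482), and the single-end pair went the other way, from 227 CPM in wild type to 201 CPM in the knockout.

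CALD1, caldesmon, which binds actin and tropomyosin and restrains myosin (ENSG00000122786, chromosome 7, 134744252 to 134970728, plus strand), varied most among the abundant genes. Its level was 104, 135 and 131 CPM in wild type, 111, 156 and 150 CPM in clone 1, with 125 and 175 CPM in clone 2. The 3 highest values were those of the knockout libraries with sample numbers 11 to 13, while the knockout libraries with numbers 4 and 5 lay inside the wild type range. The log2 fold change in the mean of the clones was 0.23 (SE 0.16, edgeR adjusted p = 0.389). Within the run of sample numbers 1 to 5 it was -0.07, with -0.15 in clone 1 and 0.0070 in clone 2, and with the run as a term it was -0.07, so the sign did not hold within the run. No source used here says what the sample numbers stand for. In the single-end pair CALD1 was at 89.1 CPM in wild type and 140 CPM in the knockout, a ratio of 1.57 (exact 95% interval 1.51 to 1.63, counting error only).

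**Figure D4:**
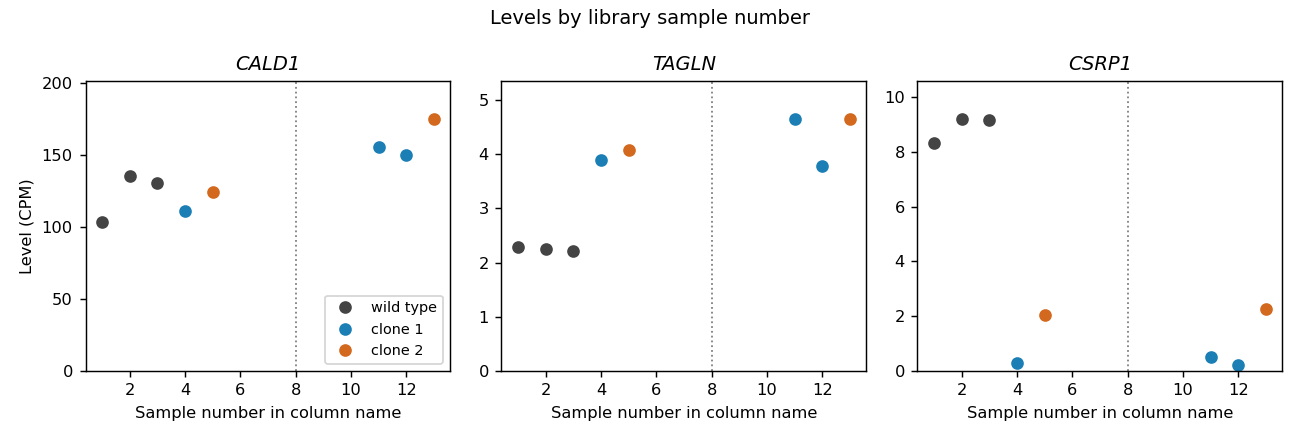
Level in CPM of CALD1, TAGLN and CSRP1 against the sample number in the column name, 1 point per paired-end library coloured by group, with a dotted line between the runs. CALD1 is highest in the 3 libraries numbered 11 to 13, whereas for TAGLN and CSRP1 the knockout libraries numbered 4 and 5 already stand apart from wild type.

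The tropomyosin genes were the members closest to the known splicing role of RBM4. TPM1 (ENSG00000140416, chromosome 15, 63042632 to 63071915, plus strand) was at 285, 325 and 322 CPM in wild type, 292, 318 and 288 CPM in clone 1, with 291 and 325 CPM in clone 2. The groups overlapped fully. TPM1 had a log2 fold change in the mean of the clones of -0.03 (SE 0.06, edgeR adjusted p = 0.752), with a 95% interval of -0.15 to 0.08 from that SE. TPM1-AS overlaps 16.1% of its exon bases on the opposite strand. The TPM1 total thus differed by less than the spread between libraries, and exon use was not measured.

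TPM2, beta-tropomyosin (ENSG00000198467, chromosome 9, 35681992 to 35690121, minus strand), was at 8.49, 8.67 and 9.06 CPM in wild type, 8.88, 8.46 and 10.4 CPM in clone 1, with 10.6 and 10.6 CPM in clone 2. Both clone 2 libraries lay above all others, and clone 1 overlapped wild type. The share of all features that separate in this way was not computed, so nothing is read from the separation. TPM2 had a log2 fold change of 0.28 (SE 0.11) in clone 2, with an unadjusted p of 0.0208 and an edgeR adjusted p of 0.121, and 0.18 in the mean of the clones (edgeR adjusted p = 0.181), so neither passed the threshold. The single-end pair gave 9.49 CPM in wild type and 11.1 CPM in the knockout.

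VCL, vinculin, which couples actin to talin and alpha-catenin at adhesions (ENSG00000035403, chromosome 10, 73995193 to 74121363, plus strand), was at 255, 259 and 261 CPM in wild type, 260, 289 and 262 CPM in clone 1, with 274 and 295 CPM in clone 2. Clone 2 lay above wild type and clone 1 overlapped it, and here too the share over all features was not computed. VCL had a log2 fold change of 0.14 in clone 2 (unadjusted p = 0.0441, edgeR adjusted p = 0.196) and 0.10 (SE 0.05) in the mean of the clones (edgeR adjusted p = 0.187). The single-end pair gave 248 CPM in wild type and 285 CPM in the knockout.

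MYL9, the regulatory light chain of smooth muscle and non-muscle myosin (ENSG00000101335, chromosome 20, 36541484 to 36551447, plus strand), had 3 counts in clone 1 replicate 1 and 0 in the other 7 paired-end libraries. In those 7 libraries a count of 0 allows a level of up to 0.0541 to 0.0856 CPM, depending on the library. In the single-end table it had 35 counts in wild type (0.793 CPM) and 39 in the knockout (0.945 CPM), so the tables disagree on whether the gene is present. This behaviour was not particular to MYL9: of 16188 gene rows with at least 35 counts in both single-end libraries, 331 had a paired-end total of 3 or fewer.

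Between the clones, 2.09% of all features were called (1.10% higher in clone 2, 0.993% lower). Of the 7 tested genes not picked for their values, 0 were called by edgeR and 0 by DESeq2, and 1, ACTA2, had an unadjusted edgeR p below 0.05 (0.0138). A count over all 9 tested genes would add the 2 that were picked on values from these libraries, CSRP1 and MYOM1, and nothing is read from it.

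By the Pearson correlation of log2 CPM over the 8 paired-end libraries, among 13431 genes, the pattern of CSRP1 was most like that of GNB4 (r = 0.997), SLIT2 (0.992), LIN28B (0.988), IL1RAP (0.988) and RAD1 (0.986). These 5 were lower by less than CSRP1: IL1RAP, with the widest range, averaged 5.50 CPM in wild type, 2.27 in clone 1 and 3.67 in clone 2. MYOM1 was most like SERPINB1 (r = 0.998), SLC17A9 (0.994), ZNF492 (0.991), THBS2 (0.991) and MAGI2 (0.988). SLC17A9 averaged 20.4 CPM in wild type, 32.8 in clone 1 and 0.115 in clone 2. An r of at least 0.95 was reached by 57 genes for CSRP1 and by 22 for MYOM1. With 8 points that share libraries and fall into 3 groups, these correlations describe the group pattern only.

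The close relatives of the members were counted by family in the mean of the clones, where 18.0% of all features were called (9.87% higher, 8.09% lower). Of 4 tropomyosin genes, 0 were called (median log2 fold change 0.05): TPM3 was at 447 to 469.9 CPM in wild type and 400.4 to 470.4 CPM over the knockout libraries. TPM4 had a log2 fold change of 0.13 (unadjusted p = 0.0190, edgeR adjusted p = 0.0828), and it was called without clone 1 replicate 3 or with a correction for GC content, at a lowest adjusted p of 0.0380. Of the calponin and transgelin genes, 2 of 4 tested rose (median 0.11), TAGLN and TAGLN2. TAGLN2, at 213, 216 and 230 CPM in wild type and 236 to 256 CPM in the knockout libraries, had a log2 fold change of 0.17 (edgeR adjusted p = 0.0282). That call was lost in 6 of 18 alternative settings, among them without wild type replicate 1 or 2 or either clone 2 replicate, at adjusted p up to 0.211. CNN3 differed by -0.02 on the log2 scale (edgeR adjusted p = 0.850).

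Relatives of CSRP1 did not share its pattern. CSRP2 was at 19.3 to 20.7 CPM in wild type, 18.0 to 19.7 in clone 1 and 20.5 to 20.9 in clone 2, a log2 fold change of -0.02 in the mean of the clones (edgeR adjusted p = 0.900). CRIP2, another small LIM protein, rose from 3.94, 4.31 and 3.90 CPM in wild type to 7.64, 7.05 and 8.24 CPM in clone 1, and to 9.01 and 8.30 CPM in the clone 2 libraries. Its log2 fold change was 1.01 (SE 0.10, edgeR adjusted p = 1.24e-05). CRIP2 was called in every alternative that keeps at least 2 libraries of each clone. CRIP3 was at 0.831, 1.03 and 0.824 CPM in wild type, 0.906, 1.01 and 1.36 CPM in clone 1, with 0.148 and 0.149 CPM in the clone 2 libraries. A fall was called in clone 2 (log2 fold change -2.56, SE 0.36, edgeR adjusted p = 0.000418) but not in clone 1 (0.30, edgeR adjusted p = 0.423), and the difference between the clones was -2.85 (SE 0.35, edgeR adjusted p = 0.000332).

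Of the actins, 0 of 4 tested were called in the mean of the clones (median 0.0026), with ACTB at 3833 to 4207 CPM in wild type and 3706 to 4276 CPM in the knockout libraries. In clone 2, where 10.8% of all features were called (4.59% lower), 1 of the 4 had an edgeR adjusted p below 0.05, ACTG2. ACTG2, the enteric smooth muscle gamma-actin, was at 37.4, 42.4 and 42.5 CPM in wild type, averaged 46.8 ± 2.81 CPM in clone 1 (SD, n = 3) and was at 29.9 and 33.6 CPM in the clone 2 libraries. It fell by 0.36 on the log2 scale in clone 2 (edgeR adjusted p = 0.0110), and clone 2 was lower than clone 1 by -0.56 (SE 0.08, edgeR adjusted p = 0.00133). ACTA2 had the same order of group means, without passing the test.

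Of the wider contractile genes, counted in the mean of the clones against the 18.0% background, the thin filament list of troponins, leiomodins and tropomodulins had 3 of 8 tested genes up and 0 down (median 0.39). TNNT1, slow skeletal troponin T, was at 7.02 to 8.80 CPM in wild type, 13.2 to 14.4 in clone 1 and 17.6 to 17.9 in clone 2, a log2 fold change of 0.94 (edgeR adjusted p = 6.73e-06). TNNI3, cardiac troponin I, was at 0.114 to 0.291 CPM in wild type and 0.559 to 1.01 CPM in the knockout libraries, a log2 fold change of 1.97 (edgeR adjusted p = 0.00105). The cardiac marker list, which holds TNNI3, had 7 of 11 genes at 0 in the paired-end table, though 1 of the 7, NPPA, had 41 and 43 counts in the single-end libraries. The paired-end sum of the list was 7.25 to 8.59 CPM in wild type, 6.53 to 7.08 in clone 1 and 4.88 to 5.20 in clone 2. The third gene was TMOD1, at a log2 fold change of 0.54 (edgeR adjusted p = 0.0300), a call lost in 5 of 18 alternatives, among them without wild type replicate 1 or 3 or either clone 2 replicate, at adjusted p up to 0.181.

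The M-band and Z-disc list, to which MYOM1 belongs, had 2 of 16 tested genes up and 4 down with MYOM1 included (median -0.11). MYOM1 was picked for its low counts, so the number down in this list is not read against the background. For the lists of this paragraph the background was again 18.0% of all features called (9.87% higher, 8.09% lower). ACTN2, the alpha-actinin of the muscle Z-disc, was at 2.33 to 2.73 CPM in wild type and 1.33 to 1.93 CPM over the knockout libraries, a log2 fold change of -0.56 (edgeR adjusted p = 0.0154). That call was lost in 4 of 18 alternatives, among them with wild type replicate 1 or 2 left out, at adjusted p up to 0.0920. MYOM2, the nearest relative of MYOM1 in the table, differed by -0.11 (SE 0.24, edgeR adjusted p = 0.795). The counts of this list changed with single libraries, with 1 up and 1 down when wild type replicate 1 or 2 was left out and 1 up and 2 down without wild type replicate 3. Calls over all features fell in the same settings, from 3725 to 1847, 2217 and 2443 without wild type replicate 1, 2 and 3, so the change is not particular to the list. The myosin light chain list had 3 of 14 up and 1 down (median 0.08): MYL6, the essential light chain of non-muscle myosin, was at 224 to 257 CPM in wild type and 271 to 322 CPM in the knockout libraries, a log2 fold change of 0.28 (edgeR adjusted p = 0.00338). MYL5 rose by 0.42 on the log2 scale (edgeR adjusted p = 0.00482). The light chain list had 2 up and 0 down when wild type replicate 1 or 2 was left out, settings in which calls over all features also fell. MYL12A and MYL12B, the regulatory light chains most like MYL9, were at 155 to 169 and 187 to 205 CPM in wild type, with log2 fold changes of -0.15 (edgeR adjusted p = 0.0907) and 0.09 (edgeR adjusted p = 0.311).

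The adhesion partners of vinculin had 7 of 37 tested genes up and 5 down (median 0.05) in the mean of the clones, where 18.0% of all features were called (9.87% higher, 8.09% lower). TES, testin, a LIM protein of focal adhesions and stress fibres, had the smallest adjusted p of the list and rose from 4.16 to 4.82 CPM in wild type to 14.0 to 16.8 in clone 1 and 10.2 to 10.6 in clone 2, a log2 fold change of 1.51 (edgeR adjusted p = 1.74e-07). TLN2, talin 2, which binds vinculin directly, fell from 38.2 to 41.9 CPM in wild type to 23.1 to 25.3 in clone 1 and 28.5 to 29.5 in clone 2, a log2 fold change of -0.60 (edgeR adjusted p = 6.97e-06). TNS1, tensin 1, which links actin to integrins, and PDLIM2, an actinin-binding PDZ-LIM protein, rose by 0.77 (edgeR adjusted p = 0.00186) and 0.47 on the log2 scale (edgeR adjusted p = 0.00467). LIMS1 and PARVB, partners of integrin-linked kinase, fell by 0.53 (edgeR adjusted p = 2.26e-05) and 0.48 on the log2 scale (edgeR adjusted p = 9.17e-05). The counts ranged from 3 up and 6 down without wild type replicate 2 to 9 up and 7 down with no filter on low counts. Over all features these settings gave 1123 up and 1094 down, and 2364 up and 1966 down.

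Of SRF, its coactivators and the actin-regulating GTPases and kinases upstream of them, 2 of 15 tested genes rose and 2 fell (median -0.02). For this list and those below, counted in the mean of the clones, the background was 18.0% of all features called (9.87% higher, 8.09% lower). SRF itself was at 79.6 to 86.1 CPM in wild type and 79.6 to 94.0 CPM in the knockout libraries (log2 fold change 0.04, edgeR adjusted p = 0.716). RHOC and LIMK2 rose by 0.36 (edgeR adjusted p = 0.000548) and 0.38 (edgeR adjusted p = 0.000913), and RHOB fell by 1.75 on the log2 scale (edgeR adjusted p = 0.000448). The list of SRF and its upstream regulators had 4 down without clone 1 replicate 1, 3 down without clone 1 replicate 2 or 3, and 1 down without wild type replicate 1. With the sample-number run as a term it had 2 up and 5 down. Over all features, 1678 were called lower in the main fit. That number was 2207 without clone 1 replicate 1, 797 without wild type replicate 1 and 2091 with the run as a term. Of other cytoskeletal SRF targets, 5 of 19 rose and 0 fell (median 0.04), TES among the risers. When wild type replicate 1 or 2 was left out 2 rose, and 1 fell without wild type replicate 2 or without clone 1 replicate 1. Features called higher numbered 2047 in the main fit, 1050 without wild type replicate 1 and 1123 without wild type replicate 2. Of the tropomyosin splicing regulators, 1 of 11 rose and 4 fell (median -0.06). RBM4, the targeted gene, is among the 4 that fell, so that number is not read against the background. RBM4B, the paralog of RBM4, rose from 30.0 to 30.5 CPM in wild type to 45.6 to 52.1 CPM in the knockout libraries, a log2 fold change of 0.65 (edgeR adjusted p = 3.21e-06). PTBP1 was at 645 to 675 CPM in wild type and 634 to 700 CPM in the knockout libraries, a log2 fold change of 0.00 (edgeR adjusted p = 0.973). The list of tropomyosin splicing regulators had 2 down without wild type replicate 1, where fewer of all features were called lower as well.

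**Figure D5:**
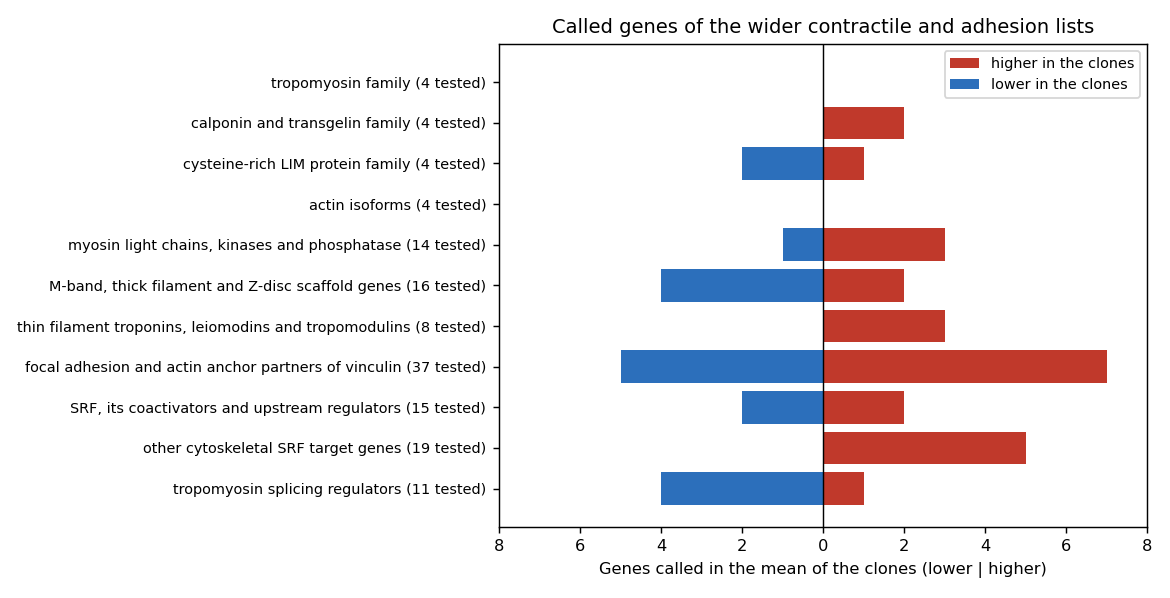
Number of genes of each wider list called higher (to the right) or lower (to the left) in the mean of the clones, with the number tested beside each list name. The adhesion list, the largest with 37 tested genes, has the most calls, 7 higher and 5 lower. The tropomyosin and actin lists, with 4 tested genes each, have none. Over all features 18.0% were called, and counts of lists of unlike size are not compared. The counts include MYOM1, picked for its low counts, and RBM4, the targeted gene.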

How the data were processed

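HAP1 RNA was made into TruSeq Stranded mRNA libraries, per the labels' protocols. The authors deposited raw read counts per gene and per repeat subfamily, a paired-end and a single-end table. Per the submitters' processing notes the aligner was STAR 2.5.2a and the genome hg38, also called GRCh38. The names of the deposited tables point to TEToolkit as the counter. Not given in the sources used here are its version, its strand setting, how it treated multi-mapped reads and which annotation it used. Gene IDs were matched to symbols (56948 of 58051) and to GENCODE 29 (57447 of 58051).

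The 8 paired-end libraries were fitted together with 1 mean per group in edgeR 4.0.16 (R 4.3.3): filterByExpr, TMM factors, robust quasi-likelihood F tests, Benjamini-Hochberg adjustment over 20747 features (19683 genes, 1064 repeats), called below 0.05. SE values were taken as |log2 fold change| over the root of the F statistic. Library totals of 33192095 to 55617525 counts set the counting error of each level. The single-end pair was scaled by plain totals, kept apart and not tested. Exact 95% intervals and the upper limit of a 0 (3 counts) cover counting error only, since no molecular identifiers were used.

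The members and lists were chosen with earlier results of these data known. Named beside the 10 members and RBM4 were up to 3 called genes per direction of each list by smallest adjusted p (the smallest p where none was called), paralogs of members, and the 5 genes most correlated with CSRP1 and MYOM1. Some genes that this rule names are not reported here. MYOM2, MYL12A, MYL12B, SRF, PTBP1 and PCSK7 were named after their values were seen. Alternatives were DESeq2 (1.42.0) size factors and test, no filter, a replicate block, GC correction, both together, sample-number run as a term, the knockouts as 1 group, each library left out and, chosen after seeing the data, the first run of sample numbers alone and gene rows alone. The scripts were tested on simulated data.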

Additional observations from a re-analysis of the deposited data

Results flagged for a closer look

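Of the members and the genes that the naming rule takes from the wider lists, 5 had an edgeR adjusted p below 0.05 for the difference between the knockout clones, which was the reason for listing them. Over all features there were 434 of 20747 (2.09%). The genes looked at were chosen with results of these data known, so nothing is read from the count of 5. All values here are log2 differences, clone 2 minus clone 1. Among the members these were CSRP1, at 2.64, and MYOM1, at -3.64, both chosen on values from these libraries. Among the related genes named in the report they were CRIP3, at -2.85 (adjusted p = 0.000332), ACTG2, at -0.56 (adjusted p = 0.00133), and TES, at -0.58 (adjusted p = 0.00800). CRIP3 shared the direction of MYOM1, low in clone 2 and within or near the wild type range in clone 1. TES was above wild type in both clones and higher in clone 1, and ACTG2 was highest in clone 1 and lowest in clone 2. Each clone is 1 line, so these differences cannot be told apart from other differences between the lines.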

How the results depend on the processing

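In the mean of the clones the log2 fold change of TAGLN was 0.78 to 0.96 over 18 alternatives. TAGLN stayed called in every alternative that keeps at least 2 libraries of each clone. Alternatives that leave 1 library of a clone are read for the size of the change only. Leaving out any 1 wild type or clone 1 library left 1 called gene of the 7 tested that were not picked for their values, in each comparison with wild type. The replicate block, alone and with the GC correction, gave 2 called genes in place of 1 in the mean of the clones, in clone 1 and in clone 2. Over all features, 4248 were called in the mean of the clones with the block alone and 3019 with both, against 3725 in the main fit. The added gene was CALD1, at 0.25 (adjusted p = 0.00298) and 0.31 (adjusted p = 0.000402) in the mean of the clones. The labels' numbers are not shown to pair the libraries: deviations of same-numbered libraries correlated at r = -0.23 to 0.25 in 7 pairs, 2 of them above 0.1, and 7 of 14 comparisons were best with the own number.

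Signs turned only for log2 differences near 0 or for CALD1, and none of these values passed the threshold. In the mean of the clones ACTA2 was -0.0020 with DESeq2 size factors, -0.0025 with the DESeq2 test, -0.019 with the replicate block, -0.043 with GC correction, -0.071 with both, -0.0064 on gene rows alone, and -0.091 to 0.064 with 1 library left out (-0.030, -0.035 and -0.037 without clone 1 replicate 1, clone 1 replicate 2 or clone 2 replicate 1). With GC correction, and with it and the replicate block, CNN2 was -0.044 and -0.037 in the mean of the clones, -0.042 and -0.041 in clone 1 and -0.047 and -0.033 in clone 2, and TPM2 in clone 1 was -0.039 and -0.041. CNN2 between the clones was 0.0080 with both. With the sample-number run as a term, or its first run alone, CALD1 was -0.068 and -0.072 in the mean of the clones and -0.16 and -0.15 in clone 1. MYOM1 in clone 1 was -0.0068 with the run as a term, and TPM1 between the clones was -0.012 in the first run alone. With 1 library left out, TPM1 ran from -0.10 to 0.00028 in the mean of the clones, from -0.11 to 0.064 in clone 2 (0.0097 and 0.0046 without wild type replicate 2 or 3) and from -0.043 to 0.13 between the clones. In the same way TPM2 ran from -0.018 to 0.14 in clone 1 and CNN2 from -0.017 to 0.067 in clone 2, and between the clones TAGLN ran from -0.019 to 0.19 and CALD1 from -0.16 to 0.34 (-0.029 without clone 1 replicate 1). The cause was not tested.

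Over all features, 3725 were called in the mean of the clones, but 1847 without wild type replicate 1, 2217 without replicate 2 and 2443 without replicate 3, against 4251 without clone 1 replicate 1. The cause of these shifts was not tested. In the first run of sample numbers alone each clone has 1 library. Calls in that setting therefore carry no spread between libraries of a clone. Leaving out 1 of the 2 clone 2 libraries assumes that the other varies like the remaining groups. At a few counts per library, as for MYL9 and CSRP1 in clone 1, depth limits the precision.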
